A study of Mus musculus with 8 samples.

Results

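The genes described here are the numbered integrin subunits and the laminin chains. Integrins are adhesion receptors made of an alpha and a beta subunit, and they join the cytoskeleton to the matrix or to other cells. Laminins are trimers of an alpha, a beta and a gamma chain and form the core of the basement membrane that wraps cardiomyocytes and vessels. In adult heart muscle the main laminin receptor pairs the products of Itga7 and Itgb1, and the main laminin alpha chain around the fibre is encoded by Lama2. Members were chosen by gene symbol alone: Itga or Itgb followed by a number, which keeps Itga2b, and Lama, Lamb or Lamc followed by a single digit. The rule matched 31 of 24341 genes in the deposited table, and the 30 described here are 20 integrin subunits and 10 laminin chains. Integrin alpha subunits named by a letter, such as Itgav and Itgam, fall outside the rule and are given as related genes.

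RNA of mouse heart ventricle was sequenced as stranded total RNA after removal of ribosomal RNA, 1 library per sample. The cre_positive group has 4 libraries from male mice of 12 weeks whose Med13 and Med13l alleles are both floxed on both chromosomes and which carry Cre. The deletion is described as specific to cardiomyocytes in the series title, and no label says which Cre line was used. The cre_negative group, the controls, has 4 libraries from male mice of the same age with the same floxed alleles and no Cre. Both groups were given tamoxifen in chow, and the design text puts the profiling 4 weeks after tamoxifen. No group carries Cre without the floxed alleles, so effects of Cre and of the deletions cannot be told apart. The labels do not say that each library is a separate animal, and the library name given in the labels for cre_negative 2 is that of cre_negative 1 with a suffix added, so p-values measure the spread between these libraries, which may in part be technical. No 2 libraries held identical values.

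Levels are in FPKM, a fragment count divided by transcript length and library size, which allows genes to be compared with each other. Library depth, estimated from the FPKM of single fragments, ran from 4.46 to 23.5 in units of 1e+06 fragments. On that estimate 1 FPKM stands for 8.91 to 47.0 fragments of a 2 kb transcript, which bounds counting error alone. Libraries also differed in Rn45s, a ribosomal precursor, with 5 above 100 FPKM (cre_negative 1, 3 and 4, cre_positive 1 and 2) and 3 below (cre_negative 2, cre_positive 3 and 4), called high-Rn45s and low-Rn45s libraries. The low-Rn45s libraries were also the deepest, at an estimated 15.3 to 23.5 in the same units, against 4.46 to 8.55 for the high-Rn45s ones. Differences between these sets therefore cannot be assigned to Rn45s or to depth. The low-Rn45s set holds 1 control, so p-values within it measure no spread between controls. Med13 fell from 12.0 ± 2.23 to 8.13 ± 0.554 FPKM and Med13l from 4.92 ± 0.814 to 2.52 ± 0.113 FPKM (± SD, n = 4 each). The groups did not overlap for either gene, where 38.0% of all tested genes did not overlap. The 10 cardiomyocyte markers summed to 70848 to 75467 FPKM over the controls and 31172 to 32169 FPKM over the cre_positive libraries, with 8 of 10 called lower, where 19.4% of all tested genes were. Of 5 lung and airway epithelium markers, 3 (Sftpc, Scgb1a1, Krt5) stood at the lowest value, 0.01, in each library. Groups were compared with limma on log2(FPKM + 1) over the 11688 genes whose mean reached 1 FPKM, and a gene was called at a Benjamini-Hochberg adjusted p under 0.05. Log2 changes on that scale understate the change of low genes.

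Of these 30 members, 19 passed the filter on low values, with means from 1.29 FPKM (Itga11) to 236 FPKM (Itgb1), and 11 did not. Among the 19 tested, 7 rose (Itga3, Itga5, Itga9, Itga11, Itgb1, Itgb5 and Lama2), 3 fell (Itga6, Itgb2 and Itgb6) and 9 were not called. Itga11, with a control mean under 1 FPKM, passed the filter only through the group where it is high. The share of all tested genes called was 39.2%, with 19.7% higher and 19.4% lower, against 52.6% of the tested members. The calls lay mostly among integrins, where 9 of 12 tested genes were called, against 1 of 7 tested laminin chains. The median log2 change was 0.20 over the tested members and -0.007 over all tested genes. Values of cre_positive and cre_negative libraries did not overlap for 8 of the 19 tested members, 6 higher and 2 lower, where 38.0% of all tested genes did not overlap. Scaling each library to a fixed FPKM sum moved the all-gene median from -0.0070 to 0.26. Under it 13 members were higher and 1 lower, against 7 and 3. The laminin chains Lama2, Lamb1, Lamb2, Lamb3 and Lamc1 were then called higher, so their contrast with integrins rested on the deposited scale. The share of calls that were higher over all genes was then 84.3% against 50.4%. Med13 had a log2 change of -0.50 (limma adjusted p = 0.00612) on the deposited scale and -0.21 (0.184) under the fixed sum. Med13l had -0.74 and -0.50 and was called in both. In the high-Rn45s libraries alone Med13 was not called (-0.51, limma adjusted p = 0.0529). Directions below are those of the deposited scale.

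**Figure D1:**
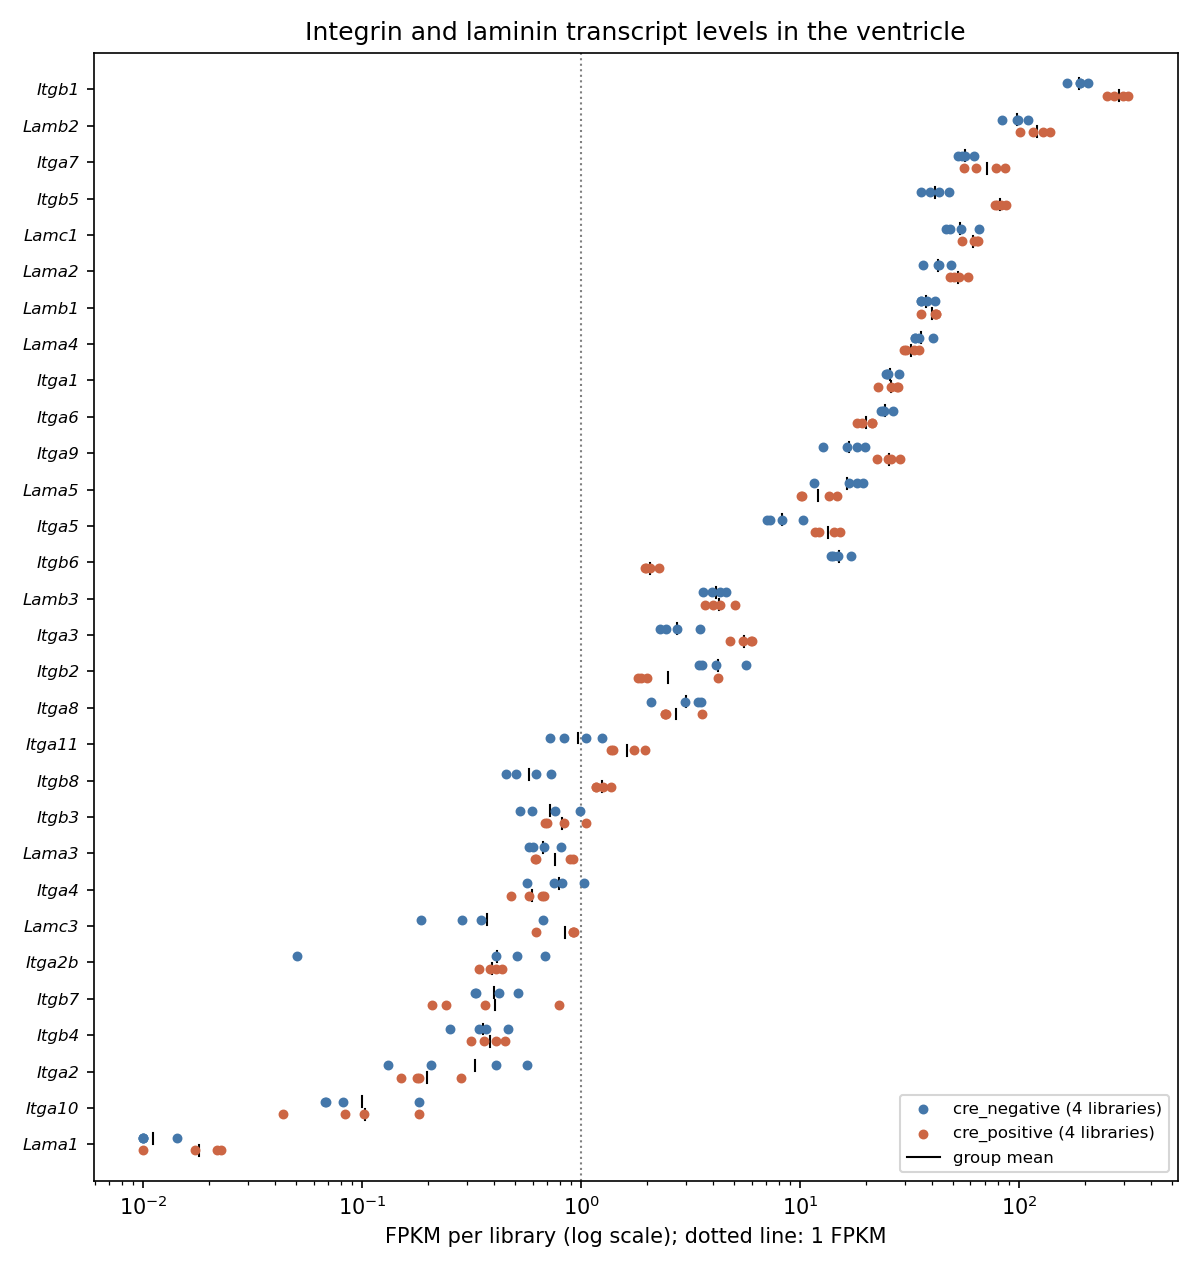
FPKM of each of the 30 members in each of the 8 libraries on a log axis, ordered by mean, with blue points for cre_negative, orange points for cre_positive and a black tick for each group mean; the dotted line marks 1 FPKM. Itgb1 stands highest, Lama1 lowest, and the orange points of Itgb6 lie far to the left of its blue points.

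Of all members the largest change was that of Itgb6, which pairs with the alpha subunit encoded by Itgav into a receptor known for activating latent TGF-beta. Itgb6 (chromosome 2, 60598292 to 60722603, mm10) stood at 14.2, 13.8, 17.1 and 14.9 FPKM across controls 1 to 4, against 1.97, 2.07, 1.95 and 2.28 FPKM across cre_positive 1 to 4. All 4 controls lay above 13 FPKM and all cre_positive libraries below 2.3 FPKM, with little spread within either group. It fell from 15.01 ± 1.45 to 2.07 ± 0.149 FPKM (± SD, n = 4 each; log2 change -2.38, SE 0.089, limma adjusted p = 1.50e-07), the 15th lowest log2 change of 11688 genes. The change was -2.44 among high-Rn45s libraries and -2.25 among low-Rn45s ones. In cre_positive libraries the Itgb6 values rested on an estimated 42 to 247 fragments. In a ventricle lysate, fewer cells of a type and less RNA per cell cannot be told apart, here and for each result below. The cardiomyocyte markers given above also stood lower in each cre_positive library, at 31172 to 32169 FPKM in sum, and their part in the fall of Itgb6 was not tested.

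Itgb5 encodes another beta subunit that pairs with the Itgav product and binds vitronectin. Itgb5 (chromosome 16, 33829665 to 33949338, mm10) stood at 39.2, 47.6, 35.7 and 43.3 FPKM across controls 1 to 4, against 77.9, 82.7, 87.2 and 78.9 FPKM across cre_positive 1 to 4. The lowest cre_positive library lay well above the highest control. It rose from 41.4 ± 5.18 to 81.7 ± 4.22 FPKM (± SD, n = 4 each; log2 change 0.97, SE 0.094, limma adjusted p = 2.55e-05), and the change was 1.01 among high-Rn45s libraries and 0.79 among low-Rn45s ones. Itgb8, whose product also pairs with that of Itgav and binds latent TGF-beta, missed the filter, at 0.453, 0.503, 0.726 and 0.625 FPKM across controls 1 to 4, against 1.17, 1.25, 1.37 and 1.17 FPKM across cre_positive 1 to 4. Its groups did not overlap, and with the filter lowered to a mean of 0.1 FPKM it was called higher (log2 change 0.51, limma adjusted p = 0.00134), where 33.2% of 14617 genes were called.

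Itgb1, the shared partner of most numbered alpha subunits, was the most abundant member in every library. Itgb1 (chromosome 8, 128685654 to 128733579, mm10) stood at 191, 166, 206 and 190.1 FPKM across controls 1 to 4, against 315, 299, 272 and 253 FPKM across cre_positive 1 to 4. Each cre_positive library exceeded each control. It rose from 188 ± 16.3 to 285 ± 27.9 FPKM (± SD, n = 4 each; log2 change 0.59, SE 0.095, limma adjusted p = 6.65e-04), and the change was 0.65 among high-Rn45s libraries and 0.65 among low-Rn45s ones. The table gives 1 value per gene, so the muscle splice form of this subunit was not measured separately. Summed over the 8 beta subunits, FPKM went from 251 ± 11.8 to 374 ± 25.9 (± SD, n = 4 each), with the Itgb1 share at 74.9% ± 3.21 to 76.1% ± 2.31. Without Itgb1, the share of Itgb6 in the sum went from 24.1% ± 3.85 to 2.33% ± 0.201 and that of Itgb5 from 65.9% ± 3.39 to 91.7% ± 1.82.

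**Figure D2:**
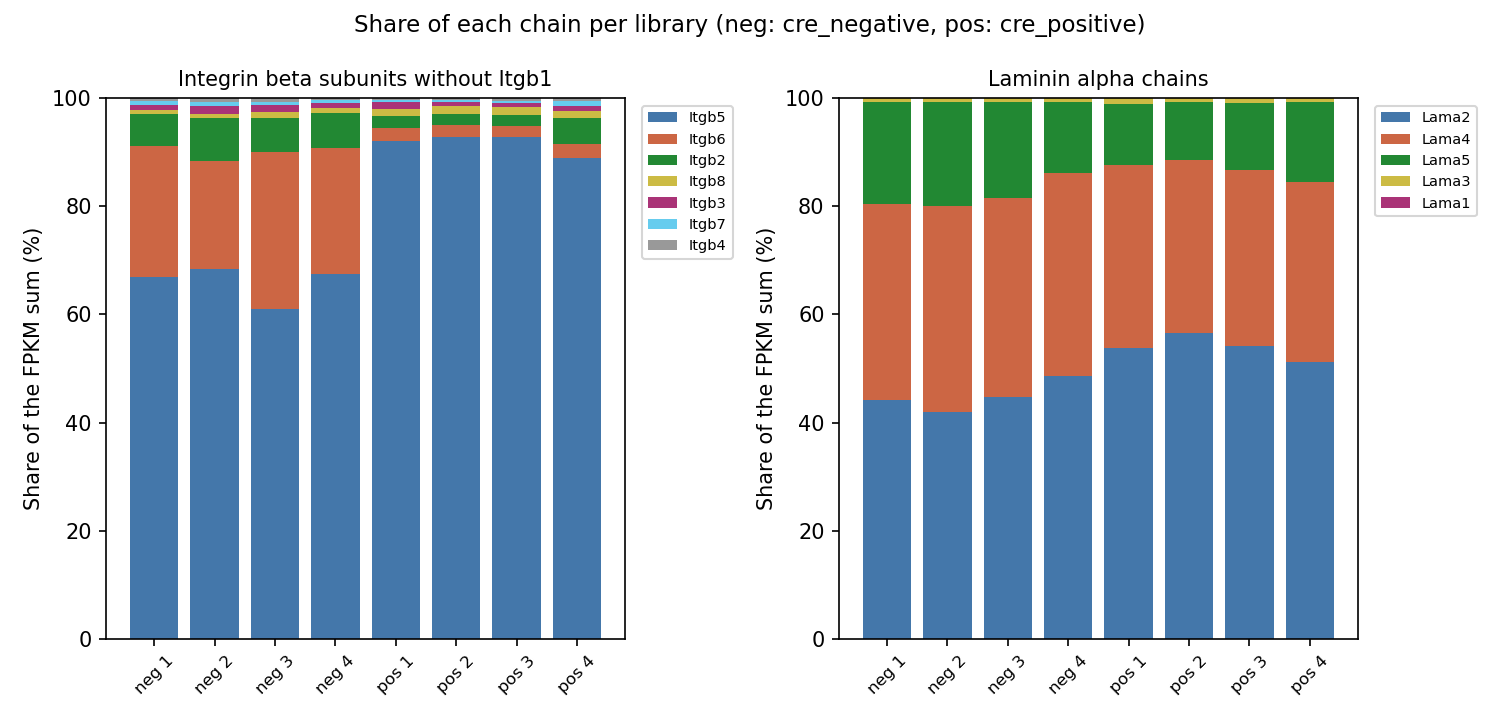
Stacked bars give, for each library, each gene's share in percent of the FPKM sum of the 7 beta subunits other than Itgb1 (left) and of the 5 laminin alpha chains (right). The Itgb6 share is narrow in each cre_positive library, and the Lama2 share is larger in each cre_positive library than in each control.

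The promoters of these 3 beta subunit genes are shown because Itgb6 fell most, Itgb5 had the largest log2 change among the beta subunits called higher, on the log2(FPKM + 1) scale, and Itgb1 was most abundant. RefSeq windows of 250 bases before to 50 after the gene start (GRCm38.p6) were on hand for 20 of the 30 members. Capitals mark GGGCGG, the GC box, and CATTCC, a core of TEAD sites, on either strand; the AP-1 letters TGANTCA were also searched and are in none of the 3 windows. Matches of different motifs did not overlap.
Itgb6, chr2:60722554-60722853, minus strand: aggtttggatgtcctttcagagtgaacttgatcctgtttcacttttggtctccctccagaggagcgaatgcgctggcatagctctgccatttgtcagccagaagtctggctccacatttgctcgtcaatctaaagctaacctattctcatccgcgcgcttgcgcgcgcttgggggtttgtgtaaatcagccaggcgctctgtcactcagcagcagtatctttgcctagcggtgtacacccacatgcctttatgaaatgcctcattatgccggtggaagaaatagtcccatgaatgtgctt
Itgb5, chr16:33829415-33829714, plus strand: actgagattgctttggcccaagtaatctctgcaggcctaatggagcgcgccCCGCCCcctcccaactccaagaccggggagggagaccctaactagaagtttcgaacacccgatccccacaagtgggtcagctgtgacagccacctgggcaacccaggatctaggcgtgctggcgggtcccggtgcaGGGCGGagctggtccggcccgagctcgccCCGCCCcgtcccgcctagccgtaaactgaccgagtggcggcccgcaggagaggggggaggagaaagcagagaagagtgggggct
Itgb1, chr8:128685404-128685703, plus strand: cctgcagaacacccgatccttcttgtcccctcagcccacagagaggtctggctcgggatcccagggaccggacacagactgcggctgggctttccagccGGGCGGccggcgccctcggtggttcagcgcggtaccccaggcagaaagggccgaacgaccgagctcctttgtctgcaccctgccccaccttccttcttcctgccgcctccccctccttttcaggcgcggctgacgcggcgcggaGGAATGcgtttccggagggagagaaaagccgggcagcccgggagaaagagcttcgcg

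The Itgb6 window held none of the 3 motifs, the Itgb5 window 3 GC boxes, and the Itgb1 window 1 GC box and 1 TEAD match. Among all 32851 windows of this length, 35.7% held a GC box, 14.7% the TEAD letters and 7.81% the AP-1 letters. G and C made up 50.3% of the Itgb6 window, 65.7% of the Itgb5 window and 67.3% of the Itgb1 window, against a median of 52.7% over all windows. These are counts of letters and do not show binding.

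Among the alpha subunits that pair with Itgb1 to bind laminin, Itga3 rose, Itga6 fell and Itga7 was not called. Itga3, a laminin receptor subunit best known from epithelia, stood at 2.44, 2.75, 3.48 and 2.29 FPKM across controls 1 to 4, against 5.50, 4.78, 6.03 and 5.95 FPKM across cre_positive 1 to 4. The groups did not overlap, and Itga3 went from 2.74 ± 0.529 to 5.56 ± 0.573 FPKM (± SD, n = 4 each; log2 change 0.82, SE 0.12, limma adjusted p = 3.25e-04). Itga7, the muscle laminin receptor subunit, was the most abundant alpha subunit, at 62.0, 56.8, 54.8 and 52.6 FPKM across controls 1 to 4, against 56.0, 63.9, 78.7 and 86.1 FPKM across cre_positive 1 to 4. The cre_positive libraries 2, 3 and 4 lay above all controls, cre_positive 2 by a small margin, while cre_positive 1 lay within the control range. Itga7 went from 56.5 ± 4.00 to 71.2 ± 13.7 FPKM (± SD, n = 4 each; log2 change 0.31, SE 0.13, limma adjusted p = 0.0796), and its change was 0.086 among high-Rn45s libraries and 0.53 among low-Rn45s ones. Without cre_positive library 1, which had the lowest estimated depth, Itga7 was called higher (log2 change 0.42, limma adjusted p = 0.0162). It was also called higher with the FPKM sum fixed (log2 change 0.62) and with array weights (log2 change 0.38, limma adjusted p = 0.0151). The change of 0.53 among low-Rn45s libraries rested on 1 control.

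Itga6 encodes a laminin receptor subunit found on endothelial and many other cells. It stood at 23.3, 24.3, 26.6 and 23.9 FPKM across controls 1 to 4, against 19.2, 21.4, 21.2 and 18.2 FPKM across cre_positive 1 to 4. Each cre_positive library lay below each control by a small margin, and Itga6 fell from 24.5 ± 1.45 to 19.99 ± 1.54 FPKM (± SD, n = 4 each; log2 change -0.28, SE 0.080, limma adjusted p = 0.017). The call was lost without cre_positive library 4 (log2 change -0.24, limma adjusted p = 0.0501) and in the high-Rn45s libraries alone (-0.27, 0.104). It was also lost in the low-Rn45s libraries alone (log2 change -0.29). Scaling to a fixed sum left a log2 change of 0.019 (limma adjusted p = 0.865). The locus given for Itga6 in the table spans 514599 bases against 112801 in GENCODE M21, and whether its value takes in other transcripts was not tested. The 10 endothelial markers summed to 422 to 488 FPKM over the controls and 358 to 430.2 FPKM over the cre_positive libraries. Of these markers 3 were called lower (Cdh5, Kdr, Tek) and 1 higher (Vwf), a called share of 40.0%, near the 39.2% of all tested genes. Their part in the Itga6 result was not tested. Itgb4, the partner of Itga6 in hemidesmosomes, stood between 0.252 and 0.465 FPKM in all libraries and was under the filter.

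Of the subunits that bind fibronectin and related ligands, Itga5 rose and Itga8 was not called. Itga5, the alpha subunit of the classical fibronectin receptor, stood at 7.07, 7.28, 10.3 and 8.27 FPKM across controls 1 to 4, against 12.2, 11.7, 14.4 and 15.2 FPKM across cre_positive 1 to 4. The groups did not overlap, and Itga5 went from 8.23 ± 1.47 to 13.3 ± 1.68 FPKM (± SD, n = 4 each; log2 change 0.64, SE 0.12, limma adjusted p = 0.00229). In the high-Rn45s libraries alone Itga5 was no longer called (log2 change 0.45, limma adjusted p = 0.0762), and in the low-Rn45s libraries the change was 0.93. Itga8, a nephronectin receptor subunit of smooth muscle and stroma, had overlapping groups, with 2.09 to 3.52 FPKM over the controls and 2.40 to 3.58 FPKM over the other group (log2 change -0.11, limma adjusted p = 0.603; 0.12 with the FPKM sum fixed).

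Collagen receptor subunits differed in level and in change. Itga1, the most abundant of them, had nearly equal means, 25.7 ± 1.68 FPKM in controls and 26.1 ± 2.50 FPKM in cre_positive libraries (± SD, n = 4 each; log2 change 0.016, SE 0.087, limma adjusted p = 0.901); with the FPKM sum fixed it was called higher (0.32, 0.0146). Itga11, a collagen receptor subunit of fibroblasts, stood at 0.839, 0.720, 1.24 and 1.05 FPKM across controls 1 to 4, against 1.96, 1.39, 1.73 and 1.37 FPKM across cre_positive 1 to 4. All cre_positive libraries lay above the controls, and Itga11 rose from 0.963 ± 0.231 to 1.61 ± 0.282 FPKM (± SD, n = 4 each; log2 change 0.41, SE 0.13, limma adjusted p = 0.025). The call of Itga11 was lost without any of 4 libraries: cre_negative 1 (log2 change 0.39, limma adjusted p = 0.0633), cre_negative 2 (0.35, 0.0607), cre_positive 1 (0.35, 0.0611) and cre_positive 3 (0.39, 0.0667). It was also lost in the high-Rn45s libraries alone (0.38, 0.131) and with no filter (0.41, 0.0523), and was kept with the filter at a mean of 0.1 FPKM (0.41, 0.0194). Itga2 and Itga10 were under the filter, at no more than 0.568 and 0.182 FPKM in any library. The 9 fibroblast markers summed to 576 to 662 FPKM over the controls and 729.6 to 814 FPKM over the cre_positive libraries. Of these markers 5 were called higher (Col1a1, Col1a2, Lum, Mmp2, Tcf21) and 1 lower (Dpt), a called share of 66.7% against 39.2% of all tested genes. Their part in the Itga11 result was not tested.

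Itga9 encodes a receptor subunit for tenascin and other ligands, close in sequence to that of Itga4 and present on smooth muscle, lymphatic endothelium and neutrophils. It stood at 18.2, 12.7, 19.8 and 16.3 FPKM across controls 1 to 4, against 25.9, 25.1, 28.6 and 22.5 FPKM across cre_positive 1 to 4. The groups did not overlap, and Itga9 rose from 16.8 ± 3.06 to 25.5 ± 2.52 FPKM (± SD, n = 4 each; log2 change 0.59, SE 0.13, limma adjusted p = 0.00446). The change was 0.48 among high-Rn45s libraries and 0.95 among low-Rn45s ones. The 6 smooth muscle markers summed to 207 to 332 FPKM over the controls and 703 to 1134 FPKM over the cre_positive libraries. Of these 6 markers, 3 were called higher (Acta2, Cnn1 and Tagln) and 0 lower, where 39.2% of all tested genes were called. The groups did not overlap for 3 markers that stood higher in cre_positive libraries and 1, not called, that stood lower. The part of these markers in the results for Itga5, Itga9 and Itgb5 was not tested.

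**Figure D3:**
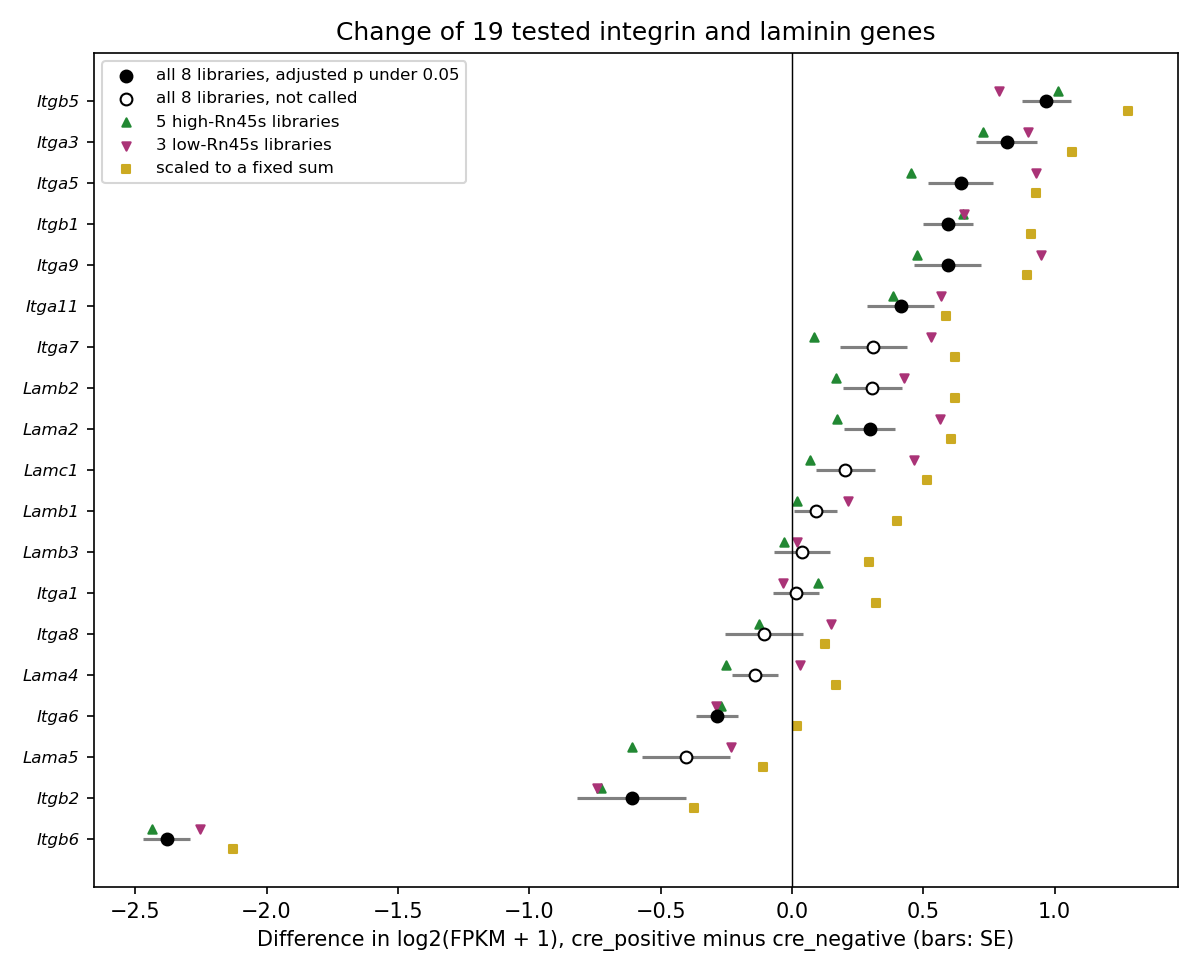
Difference in log2(FPKM + 1), cre_positive minus cre_negative, for the 19 tested members; circles with SE bars are from all 8 libraries (filled where adjusted p is under 0.05), triangles from the 5 high-Rn45s or 3 low-Rn45s libraries, and squares from libraries scaled to a fixed sum. Itgb6 stands alone at -2.38, and the squares lie to the right of the circles for each gene.

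Integrin genes of blood cells were low, and the beta subunit of leukocytes was lower in most cre_positive libraries. Itgb2, the shared beta subunit of leukocyte integrins, stood at 3.44, 5.63, 3.58 and 4.13 FPKM across controls 1 to 4, against 1.87, 1.83, 2.01 and 4.22 FPKM across cre_positive 1 to 4. Cre_positive libraries 1 to 3 lay below all controls, while cre_positive 4 lay within the control range, so the groups overlapped. Itgb2 fell from 4.20 ± 1.00 to 2.48 ± 1.16 FPKM (± SD, n = 4 each; log2 change -0.61, SE 0.21, limma adjusted p = 0.0383). Its call was kept in 10 of 19 other settings and lost without cre_negative 2 (log2 change -0.49, limma adjusted p = 0.0906), cre_negative 4 (-0.61, 0.0782), cre_positive 1 (-0.53, 0.0928), cre_positive 2 (-0.53, 0.107) or cre_positive 3 (-0.56, 0.0983). Scaling to a fixed sum also ended the call (log2 change -0.37, limma adjusted p = 0.151), as did no filter (-0.61, 0.164) and array weights (-0.53, 0.0542). The call was also lost in the low-Rn45s libraries alone (log2 change -0.74).

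Macrophage markers were lower in sum in each cre_positive library than in each control, while the groups overlapped for Itgb2. The 10 macrophage markers summed to 302 to 396 FPKM over the controls and 197 to 278 FPKM over the cre_positive libraries, with cre_positive 4 highest of its group. Of 9 tested markers, 6 were called lower (C1qa, C1qb, Cd163, Csf1r, Lyz2, Mrc1) and 0 higher, a called share of 66.7% against 39.2% of all tested genes. The part of these markers in the Itgb2 result was not tested. Neutrophil markers summed to 71.9 FPKM in cre_negative 2, which also had the highest Itgb2, and to 1.92 to 6.96 FPKM in the other libraries. Itga4, an alpha subunit of lymphocytes and monocytes, was under the filter, at 0.568, 0.750, 1.03 and 0.817 FPKM across controls 1 to 4, against 0.674, 0.580, 0.477 and 0.659 FPKM across cre_positive 1 to 4. Its groups overlapped, and its exons share 1124 bases with Cerkl on the opposite strand, itself at a mean of 0.200 FPKM. Itgb7, which pairs with Itga4 on gut-homing lymphocytes, stood at 0.209 to 0.796 FPKM, with the highest value again in cre_positive 4.

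Itga2b and Itgb3 encode the fibrinogen receptor of platelets, and the Itgb3 product also pairs with that of Itgav. Itga2b stood at 0.406, 0.685, 0.0501 and 0.509 FPKM across controls 1 to 4, against 0.433, 0.385, 0.409 and 0.343 FPKM across cre_positive 1 to 4. The low value of cre_negative 3 rested on an estimated 1 fragment, and the other 7 libraries lay between 0.343 and 0.685 FPKM. Itgb3 stood at 0.523, 0.992, 0.763 and 0.597 FPKM across controls 1 to 4, against 1.05, 0.695, 0.683 and 0.839 FPKM across cre_positive 1 to 4. The groups overlapped for both genes, which were under the filter. Among 3 tested platelet markers, Pf4 alone was called, and it was lower (log2 change -1.06, limma adjusted p = 3.01e-04). That is a called share of 33.3% against 39.2% of all tested genes. The 6 platelet markers summed to 26.8 to 37.8 FPKM over the controls and 13.3 to 18.1 FPKM over the cre_positive libraries.

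**Figure D4:**
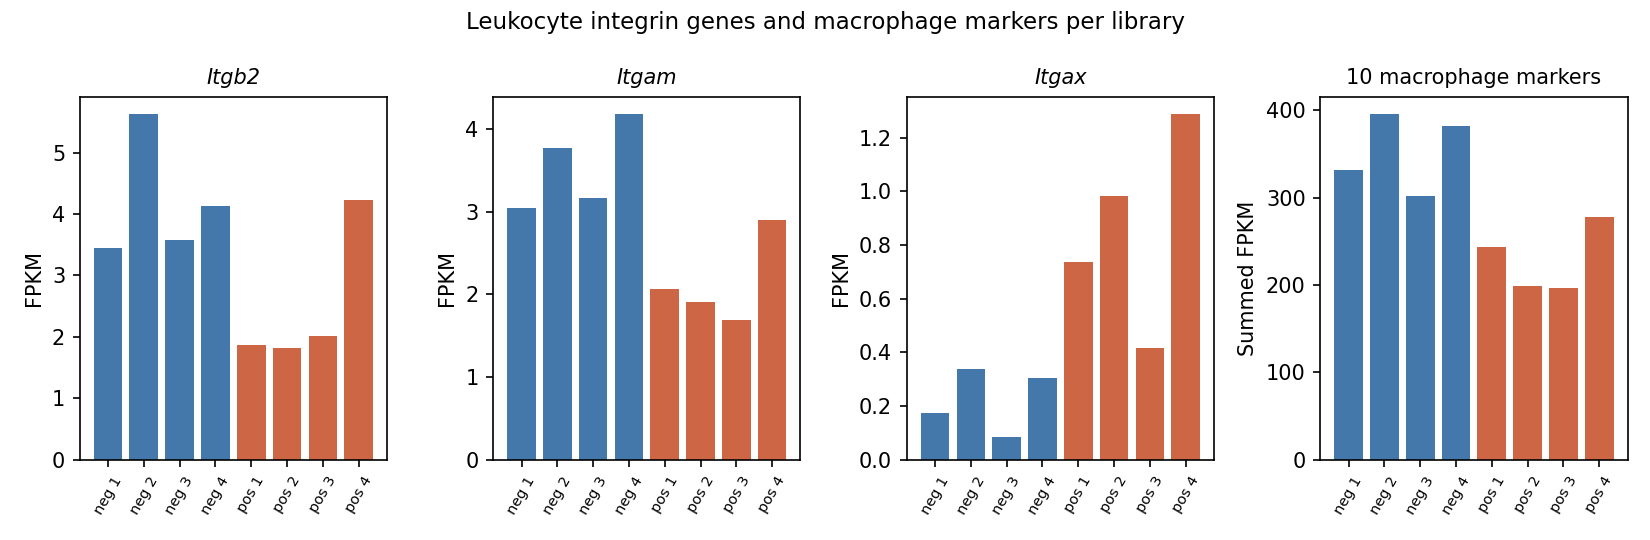
Bars from 0 give FPKM of Itgb2, Itgam and Itgax and the summed FPKM of 10 macrophage markers in each library, blue for cre_negative (neg) and orange for cre_positive (pos). Itgb2, Itgam, Itgax and the marker sum are each highest in library 4 within the cre_positive group, and Itgax alone is higher in each cre_positive library than in each control.

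Fewer laminin chains than integrin subunits were called on the deposited scale. With the FPKM sum fixed, Lama2, Lamb1, Lamb2, Lamb3 and Lamc1 were called higher. On the deposited scale, 1 of 7 tested chains rose by limma (Lama2) and 0 fell, where 39.2% of all tested genes were called. At an unadjusted p under 0.05, Lamb2 was also higher and Lama5 lower, which makes 3 of 7, and 47.4% of all tested genes lay under that p. Lama2, the alpha chain of the muscle basement membrane, stood at 42.5, 36.6, 49.0 and 43.2 FPKM across controls 1 to 4, against 48.3, 52.9, 58.6 and 50.7 FPKM across cre_positive 1 to 4. The groups met at the margin, since cre_positive 1 lay just below cre_negative 3. Lama2 rose from 42.8 ± 5.06 to 52.6 ± 4.43 FPKM (± SD, n = 4 each; log2 change 0.30, SE 0.10, limma adjusted p = 0.0364). Its call was lost without cre_negative 1 (log2 change 0.29, limma adjusted p = 0.0782), cre_negative 2 (0.22, 0.0748), cre_negative 4 (0.30, 0.069), cre_positive 2 (0.29, 0.079), cre_positive 3 (0.24, 0.11) or cre_positive 4 (0.31, 0.0579). In the high-Rn45s libraries the change was 0.17 (limma adjusted p = 0.257), and in the low-Rn45s libraries 0.56. With no filter Lama2 was not called (0.30, 0.0986).

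Both vessel-wall alpha chains stood lower in the mean and were not called. Lama4, found in endothelial and muscle basement membranes, had 35.5 ± 3.42 FPKM in controls and 32.1 ± 2.40 FPKM in cre_positive libraries (± SD, n = 4 each; log2 change -0.14, SE 0.088, limma adjusted p = 0.238). Lama5, a chain of endothelial and epithelial basement membranes, stood at 18.2, 16.8, 19.3 and 11.5 FPKM across controls 1 to 4, against 10.2, 10.1, 13.5 and 14.7 FPKM across cre_positive 1 to 4. Control 4 lay low beside its group, and without it Lama5 was called lower (log2 change -0.56, limma adjusted p = 0.0145), against -0.40 and 0.0822 in all libraries. A term for the high-Rn45s and low-Rn45s sets also made Lama5 a call (log2 change -0.47, limma adjusted p = 0.0356). Only these 2 of 20 other settings called Lama5. With the FPKM sum fixed its change was -0.11 (limma adjusted p = 0.611). Lama4 turned to a higher mean with the FPKM sum fixed (log2 change 0.17). The FPKM sum over the 5 alpha chains was 95.5 ± 10.2 and 97.6 ± 7.99 (± SD, n = 4 each). Within it the share of Lama2 went from 44.9% ± 2.80 to 53.9% ± 2.19, that of Lama4 from 37.2% ± 0.797 to 32.9% ± 0.830 and that of Lama5 from 17.2% ± 2.87 to 12.4% ± 1.81. The shares of Lama2 and Lama4 did not overlap between the groups, and those of Lama5 did. Lama3, at 0.579 to 0.921 FPKM, was under the filter, and Lama1 was listed at the lowest value in 4 libraries and at no more than 0.0226 FPKM in the others.

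The 3 beta chains were not called in all 8 libraries at the filter of 1 FPKM, and with the FPKM sum fixed each was called higher. Lamb2, the beta chain of mature muscle and the most abundant laminin chain, stood at 97.4, 98.8, 109 and 84.0 FPKM across controls 1 to 4, against 101, 116, 138 and 128 FPKM across cre_positive 1 to 4. The groups overlapped, with cre_positive 2, 3 and 4 above all controls (log2 change 0.31, SE 0.11, limma adjusted p = 0.0513). Lamb2 was called higher without cre_negative 3 (log2 change 0.36, limma adjusted p = 0.0304) or without cre_positive 1 (0.39, 0.0172). It was also called higher after quantile normalization (0.40, 0.0177) and with array weights (0.43, 0.00319). So it was with the FPKM sum fixed (0.62, 0.0011) and with the filter at 5 FPKM (0.31, 0.0479). Among low-Rn45s libraries, which hold 1 control, its change was 0.43. Counting that set, Lamb2 was called in 7 of 20 other settings. Its change among high-Rn45s libraries was 0.17. Lamb1 had 37.6 ± 2.60 FPKM in controls and 40.1 ± 2.91 FPKM in cre_positive libraries, and Lamb3, a chain of epithelial laminin, 4.11 ± 0.425 and 4.26 ± 0.586 FPKM (± SD, n = 4 each).

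Lamc1, the gamma chain of most laminins, was not called and stood at 48.2, 46.4, 65.7 and 54.6 FPKM across controls 1 to 4, against 62.1, 55.1, 64.7 and 64.3 FPKM across cre_positive 1 to 4. The groups overlapped, since cre_negative 3 was the highest of all libraries (log2 change 0.20, SE 0.11, limma adjusted p = 0.178), and without cre_negative 3 Lamc1 was called higher (log2 change 0.30, limma adjusted p = 0.0217). Its change was 0.069 among high-Rn45s libraries and 0.47 among low-Rn45s ones, which hold 1 control. It was called higher with array weights (0.28, 0.0196) and with the FPKM sum fixed (0.51, 0.00647). Lamc3 was under the filter, at 0.185, 0.350, 0.286 and 0.668 FPKM across controls 1 to 4, against 0.916, 0.915, 0.924 and 0.621 FPKM across cre_positive 1 to 4. Its groups overlapped, since cre_negative 4 was above cre_positive 4, and with the filter at a mean of 0.1 FPKM it was called higher (log2 change 0.43, limma adjusted p = 0.016).

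Cre_negative library 3 was the highest control for 14 of the 19 tested members and for 29.9% of all tested genes. The members have long transcripts, with a median of 4969 bases against 3174 for all tested genes (longest coding transcript in GENCODE M21). Against the mean of the other controls, that library had a median log2 difference of 0.23 over the members, 0.11 over all tested genes with transcripts of 4000 bases or more and -0.17 over those under 2000 bases. Between the groups the median log2 change was 0.017 over the long and -0.044 over the short transcripts. Without cre_negative 3, 9 members were called higher and 3 lower, and over all genes 2335 and 2317. Cre_negative 2 and cre_positive 2 were each the lowest of their group for 9 of the 19 tested members. Over all tested genes they were lowest for 29.6% and 20.0%. Only the FPKM column names of cre_negative 2 and cre_positive 2 lack the word trim, and its part in these orders was not tested.

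Related genes were taken from lists of integrin alpha subunits named by a letter, of proteins at the cytoplasmic face of integrins, of other integrin ligands and of basement membrane partners of laminin. Of the 6 letter-named subunits, 2 were tested. Itgav, the partner of the Itgb5, Itgb6 and Itgb8 products, stood at 9.32, 7.19, 13.7 and 8.64 FPKM across controls 1 to 4, against 20.3, 18.9, 18.9 and 17.6 FPKM across cre_positive 1 to 4. The groups did not overlap, and Itgav rose from 9.72 ± 2.82 to 18.9 ± 1.10 FPKM (± SD, n = 4 each; log2 change 0.93, SE 0.15, limma adjusted p = 8.73e-04). Itgam, the alpha subunit that pairs with Itgb2 on macrophages and neutrophils, fell from 3.54 ± 0.535 to 2.14 ± 0.529 FPKM (log2 change -0.54, SE 0.14, limma adjusted p = 0.00964). Fixing the FPKM sum ended the call of Itgam (log2 change -0.31, limma adjusted p = 0.0837), as did using the low-Rn45s libraries alone (log2 change -0.56). Itgax, which pairs with Itgb2 on dendritic cells and some macrophages, missed the filter and stood at 0.172, 0.337, 0.0851 and 0.303 FPKM across controls 1 to 4, against 0.735, 0.981, 0.416 and 1.29 FPKM across cre_positive 1 to 4. All cre_positive libraries lay above all controls, the reverse of the order of Itgam.

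At the cytoplasmic face of integrins, 15 of 26 tested genes rose and 1 fell, a called share of 61.5% against 39.2% of all genes, with a median log2 change of 0.41. The largest rises were those of Ptk2b, a kinase related to focal adhesion kinase, from 2.06 ± 0.818 to 9.73 ± 1.00 FPKM (log2 change 1.84, limma adjusted p = 1.59e-05), and of Actn1, a non-muscle actin crosslinker, from 8.31 ± 0.656 to 28.2 ± 2.46 FPKM (1.65, 9.02e-07). Flnc, a muscle filamin, rose from 70.4 ± 6.45 to 183 ± 34.5 FPKM and Zyx, a tension-sensitive adapter, from 14.8 ± 1.60 to 36.6 ± 3.24 FPKM (± SD, n = 4 each). The gene that fell was Itgb1bp2, which encodes melusin, a muscle protein that binds the tail of the Itgb1 product. It went from 216 ± 16.8 to 136 ± 9.24 FPKM (± SD, n = 4 each; log2 change -0.66, limma adjusted p = 1.38e-04). Itgb1bp2 was lower in each cre_positive library while Itgb1 was higher in each. Tln1, the talin of most cells, rose from 35.2 ± 1.81 to 79.9 ± 6.90 FPKM and Ilk, a scaffold that binds beta tails, from 52.6 ± 6.11 to 109 ± 5.70 FPKM, both named after their values were seen, while the talin of muscle, Tln2, had 18.1 ± 1.30 and 21.7 ± 2.71 FPKM and was not called (± SD, n = 4 each).

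Among other integrin ligands, 10 of 19 tested genes rose and 3 fell, a called share of 68.4%, with a median log2 change of 0.75. Ctgf, Postn, Cyr61 and Col1a1 rose most, with log2 changes of 3.49, 2.29, 1.78 and 1.45. Postn, periostin of activated fibroblasts, went from 33.4 ± 5.05 to 168 ± 31.8 FPKM and Cyr61, a matricellular ligand, from 24.0 ± 4.28 to 83.8 ± 6.73 FPKM (± SD, n = 4 each). The 3 that fell were Thbs2, from 10.7 ± 0.836 to 5.32 ± 0.535 FPKM, Vtn, the vitronectin bound by the Itgb5 receptor, from 31.4 ± 1.87 to 19.95 ± 2.44 FPKM, and Icam2, an endothelial ligand of leukocyte integrins, from 30.5 ± 1.99 to 23.2 ± 2.71 FPKM (± SD, n = 4 each). Vtn is also a pericyte marker, and the 6 pericyte markers summed to 303 to 350.4 FPKM over the controls and 266 to 312 FPKM over the cre_positive libraries. Tgfb1, whose latent form binds the Itgb6 and Itgb8 receptors, was not called (log2 change 0.25, limma adjusted p = 0.202). Spp1 and Tnc were highest in cre_positive 4, at 8.92 and 9.02 FPKM, the library that also had the highest Itgb2 of its group, and neither was called.

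Of the basement membrane partners of laminin, 5 of 14 tested genes rose and 1 fell, a called share of 42.9%, near that of all genes. The rises lay in the minor collagen IV chains Col4a3 (from 2.03 ± 0.553 to 7.98 ± 1.68 FPKM), Col4a4 (from 2.64 ± 0.622 to 6.66 ± 0.8289 FPKM) and Col4a5 (from 11.1 ± 1.18 to 27.0 ± 2.57 FPKM; ± SD, n = 4 each), in Col15a1 (log2 change 0.78) and in Bcam, a laminin receptor outside the integrin family (0.71). Col4a1 and Col4a2, the chains of the common collagen IV network, were not called (limma adjusted p = 0.0925 and 0.565). Nid2, a nidogen that joins laminin to collagen IV, was the gene that fell (log2 change -0.41, limma adjusted p = 0.0242), and its groups overlapped. Dag1, the dystroglycan that binds Lama2 laminin on muscle, stood at 105 ± 18.8 and 101 ± 4.09 FPKM (± SD, n = 4 each) and was not called. Without cre_negative 3, which had the highest Hspg2, Col4a1 and Col4a2 of the controls, 8 basement membrane genes were called higher and 0 lower. The fall of Nid2 was also lost without cre_negative 4, cre_positive 2 or cre_positive 3, each leaving 0 lower.

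**Figure D5:**
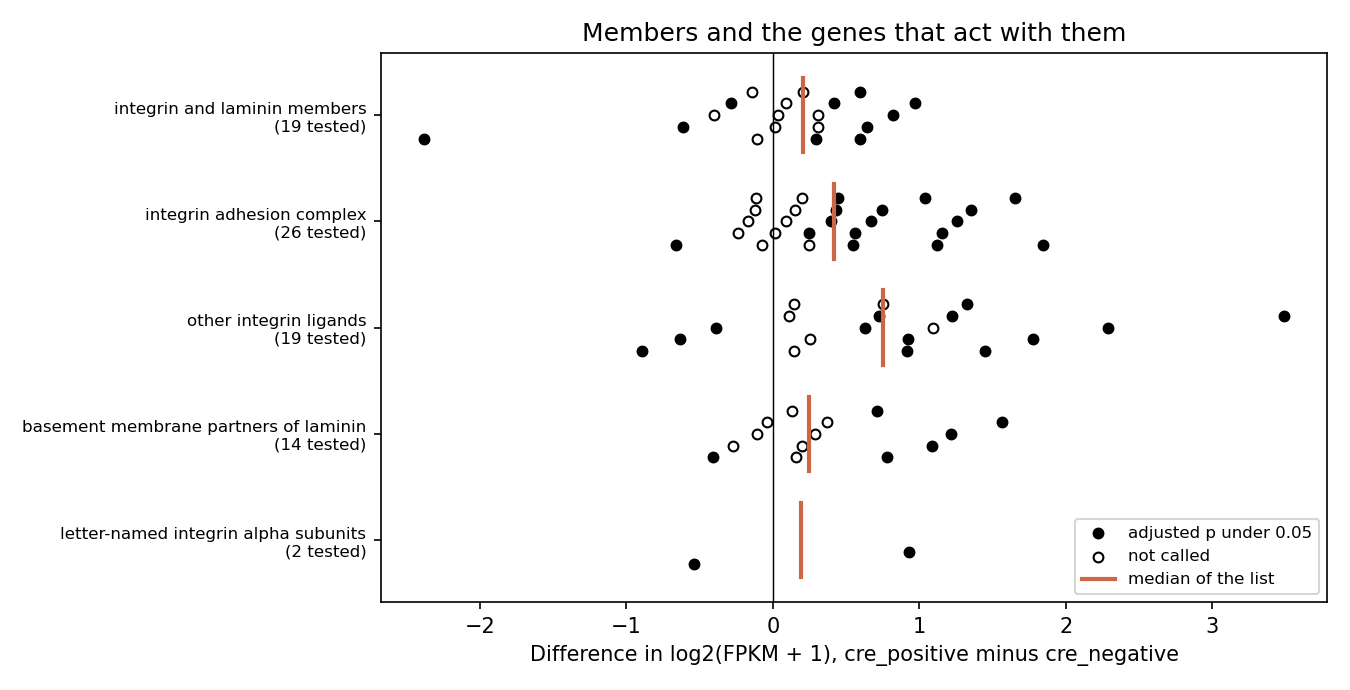
Difference in log2(FPKM + 1), cre_positive minus cre_negative, for each tested gene of the members and of 4 related lists; filled points have an adjusted p under 0.05, and orange lines are list medians. The medians of all 5 rows lie above 0, while the members spread from -2.38 (Itgb6) to 0.97 (Itgb5).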

How the data were processed

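The authors deposited FPKM, 1 value per gene symbol and library, made with Cufflinks, with Bowtie2 2.2.6 and build mm10 also listed, per the submitters' processing notes. No source used here states the annotation, whether strand was used, or any filter. The lowest value in the deposited FPKM table, 0.01, was kept as it stands, and 6 cells of 3 genes that hold a word were treated as missing. Columns were matched to libraries by the column names given in the labels. Loci are those of the table (mm10), with 1 added to each start; 11866 starts were then identical to RefSeq (GRCm38.p6). GENCODE M21 gave transcript lengths and overlaps.

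Log2(FPKM + 1) was fitted with limma 3.58.1 in R 4.3.3 (lmFit, eBayes with trend), without covariates, for genes averaging at least 1 FPKM, and p-values were adjusted by Benjamini-Hochberg over all of them. Levels are mean and SD of FPKM. The fit was tested on simulated data. Depth was estimated from 3664 genes with 1 transcript of 500 to 4000 bases, at the most frequent value of FPKM times length, taken as 1 fragment. Shares are percent of the FPKM sum of a family, with no test. The fixed sum was taken without 1291 small RNA genes and 84 ribosomal protein genes.

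Alternatives were other pseudocounts, filters, scalings and variance models, array weights, a term for the Rn45s split, each side of that split alone, a replicate block and leaving out each library. The Rn45s split was made from the values, at 100 FPKM, and is not a batch named in the labels. Values in every library are given for called members with an absolute log2 change of at least 0.5, for Itga7, Itgb1, Lama2, Lamb2, Lamc1, Itgb2, Itga4, Itga2b and Itgb3, and for some others chosen after their values were seen; for each related list up to 4 called genes with the largest change are named, others after their values were seen. The rule matched 31 genes, of which 1 stayed in the fit and is not reported here. Members, lists and marker lists were chosen with earlier results of these data known. Marker lists of lymphocytes, Schwann cells and mesothelium were also summed: 0.474 to 3.77 FPKM over the controls and 0.847 to 2.14 FPKM over the cre_positive libraries for lymphocytes, 5.15 to 5.68 FPKM over the controls and 2.82 to 4.67 FPKM over the cre_positive libraries for Schwann cells and 1.23 to 3.08 FPKM over the controls and 1.04 to 2.94 FPKM over the cre_positive libraries for mesothelium.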

Additional observations from a re-analysis of the deposited data

Results flagged for a closer look

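In 60 groups of 4 libraries (30 members in each of 2 groups), 7 libraries lay so far from the rest of their group that the gap exceeded Dixon's 95% critical value; chance flags about 1 in 20 groups. In cre_negative libraries these were Itga1 in library 3 (28.2 FPKM, high), Itga10 in library 2 (0.182 FPKM, high) and Lama1 in library 1 (0.0143 FPKM, high, with the others at the lowest value). In cre_positive libraries they were Itga8 in library 1 (3.58 FPKM, high), Itgb2 in library 4 (4.22 FPKM, high), Lamb1 in library 2 (35.8 FPKM, low) and Lamc3 in library 4 (0.621 FPKM, low). Without cre_positive library 4, Itgb2 had a log2 change of -0.82 (limma adjusted p = 0.00248).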

How the results depend on the processing

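Itgb1, Itgb5, Itgb6 and Itga9 kept call and direction in all 20 other settings and Itga3 in all 19 that tested it; Itga5 kept them in 19 of 20, Itga6 in 16 of 20, Itga11 in 13 of 19, Lama2 in 12 of 20 and Itgb2 in 10 of 19. Members called higher and lower were 7 and 3, became 13 and 1 under scaling to a fixed sum (all genes: 5447 and 1012), 4 and 2 in the high-Rn45s (1561 and 1531) and 10 and 1 in the low-Rn45s libraries alone (1919 and 2058; the lone control there is assumed to vary like the others), and ranged from 5 to 9 and 2 to 3 when each library was left out (1862 to 2335 and 1862 to 2317). Scaling to a fixed sum gave the letter-named subunits 0 lower and the basement membrane list 9 higher and 0 lower. Letter-named subunits had 2 higher with a mean of at least 0.1 FPKM or no filter, and 0 lower at 5 FPKM or in the low-Rn45s libraries. The adhesion list had 2 lower with array weights or in the low-Rn45s libraries, and 1 to 2 without each library. The basement membrane list had 8 higher with array weights and 0 lower with no filter, with the replicate block, or in the high-Rn45s libraries alone. It had 5 to 8 higher and 0 to 1 lower without each library.

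Some log2 changes of members changed sign. Under scaling to a fixed sum they were 0.019 for Itga6, 0.17 for Lama4 and 0.12 for Itga8. Low-Rn45s libraries alone gave 0.15 for Itga8, 0.030 for Lama4 and -0.034 for Itga1. Lamb3 had -0.013 with the Rn45s term, -0.030 in the high-Rn45s libraries, -0.0061 after quantile normalization and from -0.032 to 0.091 without each library, where Itga1 ran from -0.019 to 0.081. Apart from the fixed sum, which raises each tested member's change, and settings with fewer libraries, the cause was not tested.

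Replicate numbers are not said to pair the libraries. Same-numbered libraries had correlations of deviations from group means of -0.16 to -0.078, and the replicate block left 7 members higher and 3 lower, with 1963 and 1899 over all genes. Counting error limits the 11 members under the filter most.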

Other observations

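Itgbl1, which encodes a secreted protein built from repeats like those of integrin beta subunits and lies outside the naming rule, stood at 8.75, 10.6, 8.48 and 11.3 FPKM across controls 1 to 4, against 40.4, 37.5, 40.1 and 26.9 FPKM across cre_positive 1 to 4. All cre_positive libraries lay above all controls, and it rose from 9.76 ± 1.36 to 36.2 ± 6.36 FPKM (± SD, n = 4 each; log2 change 1.78, SE 0.14, limma adjusted p = 6.78e-06), a larger log2 change than that of any member called higher above. It was chosen after its values were seen.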
